A study of Mus musculus with 186 samples.

Results

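The libraries described here are the 39 lung and 39 skin samples of mice injected with phosphate-buffered saline (PBS), the vehicle controls of a bleomycin model of scleroderma. They were taken as every column of the deposited expected-count table whose name starts with PBS, 78 of the 186 libraries in the series. All mice were female C57BL/6 of about 12 weeks. PBS was injected under the shaved skin between the shoulder blades 5 times per week for 2 weeks, and tissue was collected on days 7, 14, 21, 28 and 42 (8 libraries per tissue on each day, 7 on day 28). From day 12 the mice kept beyond day 14 also received oral vehicle, last given on day 27, so the groups of days 21, 28 and 42 differ from those of days 7 and 14 in oral dosing as well as in time. No bleomycin and no SB525334, the ALK5 inhibitor of the study, was given to any of them. Lung RNA came from the superior lobe and skin RNA from a punch biopsy. The labels do not say which lung and skin came from 1 mouse. The libraries were therefore treated as independent, and p-values measure the spread among them.

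Lung is built around gas exchange. Flat alveolar type 1 cells face a dense capillary bed, type 2 cells secrete surfactant, and club and ciliated cells line the airways. Skin is built around a barrier. Basal keratinocytes under the transcription factor p63 differentiate into cornified layers over a dermis of collagen, with hair follicles, sebaceous glands, fat and a sheet of muscle below. Bleomycin cleaves DNA and is inactivated by bleomycin hydrolase, a cysteine peptidase, and lung and skin are the organs in which its toxicity is best known. The comparison asks how their stroma and damage-response genes stood in animals that received none.

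Total expected counts, in units of 1000000 (M), ran from 4.79 to 29.2 M per lung library and from 14.7 to 43.1 M per skin library, with medians of 19.6 M in each. Libraries of both tissues were on both plates, but only 1 of the 8 lung libraries of day 14 was on plate 1. Several lung libraries stood apart. In 3 of them (day 7 replicates 5 and 6 and day 14 replicate 6) hair shaft genes summed to 4295 to 6091 CPM (counts per 1000000), against at most 252.8 CPM in the other 36 lungs, and Krt5 was at 198 to 299.8 CPM, against a median of 1.68. The skins that carry the same day and replicate number had 6345, 28.5 and 1210 CPM of hair shaft genes, in that order, against at most 91.9 CPM in the other skins of days 7 and 14. Day 28 replicate 2 had the fewest counts, with 14.05% of them from ribosomal protein genes, and 24330 CPM of Hbb-bs. Day 28 replicate 6 had the most Col3a1, Fn1 and Col1a2 of the 39 lungs. Among skins, day 21 replicate 5 held the most lung transcripts, with 60.7 CPM of Sftpc. All libraries were kept, and values without these lungs are given where they matter.

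Of 16200 genes tested, 14253 (88%) differed between the tissues at an adjusted p below 0.05 in edgeR's quasi-likelihood test of the mean over the 5 days, 42.6% higher in lung and 45.3% higher in skin. On single days 71.3%, 71.8%, 77.8%, 74.7% and 78.3% of genes differed (days 7, 14, 21, 28 and 42), and 53.1% did so with the same sign on all of them. Since so many differed, genes are counted below by a stricter test, whose null is a difference of 2-fold or less. By this test 2552 genes (15.8%) were higher in lung and 2743 (16.9%) higher in skin, together 32.7%, and the median log2 difference of all genes tested was -0.02. The shares of 15.8% and 16.9% are the background for every count of list members. In 2076 genes (12.8%) all 39 lungs lay above all 39 skins, and in 1476 (9.11%) all skins lay above all lungs. Genes were at least 16-fold apart in 662 cases higher in lung (4.09%) and 857 higher in skin (5.29%). Of the 5295 genes past the 2-fold test, 5103 had the same sign on each of the 5 days. A difference is given below as log2 of lung over skin with its standard error (SE), so positive values are higher in lung. In whole tissue, fewer cells of a type and less RNA per cell cannot be told apart.

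**Figure D1:**
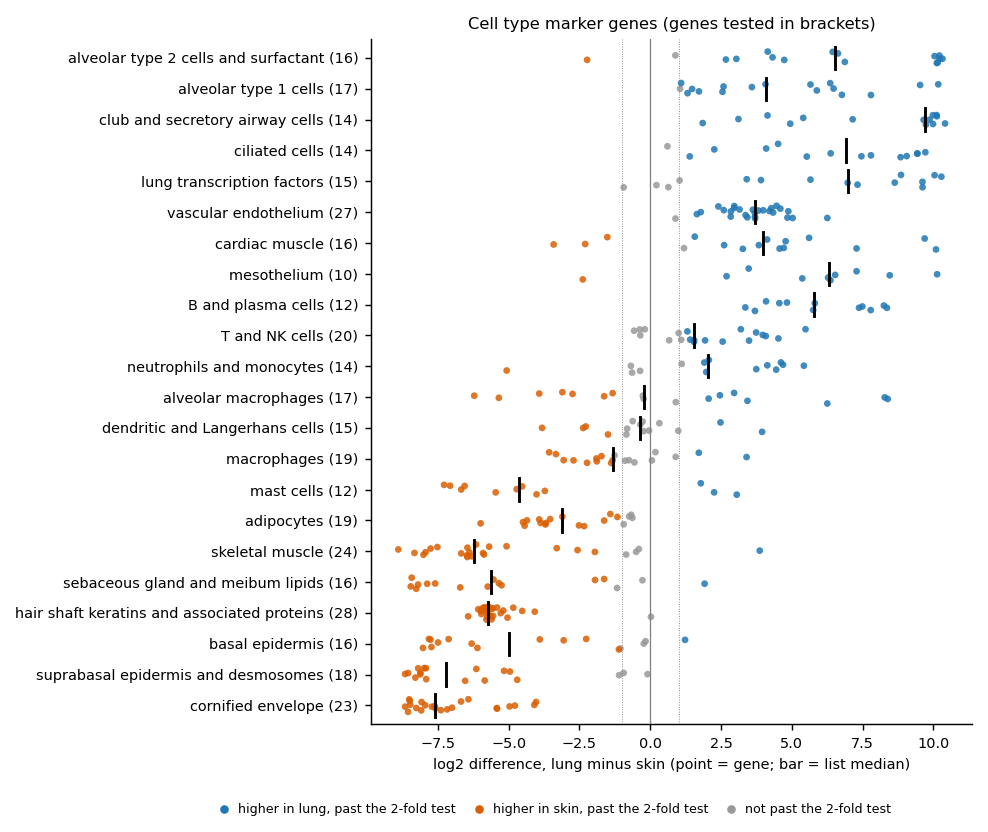
Log2 difference between lung and skin (horizontal axis) for each tested gene of 22 marker lists, with the number of genes tested in brackets, coloured by the 2-fold test. Lists of airway, alveolar and endothelial genes lie to the right of 0 and lists of epidermis, hair, sebaceous gland, fat and skeletal muscle to the left, with macrophage and dendritic cell lists between them.

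Surfactant genes were among the largest differences between the tissues. Sftpc, which encodes surfactant protein C, ranged from 6372 to 12720 CPM in lung (median 8244) and from 1.31 to 60.7 CPM in skin (median 4.46). The groups lay far apart, and the log2 difference was 10.15 ± 0.31 (adjusted p = 1.59e-41 in edgeR's 2-fold test). Sftpb, the surfactant protein needed for film formation, was at 10.32 ± 0.30 and Sftpa1, a collectin of surfactant, at 10.22 ± 0.30. In the alveolar type 2 list, 14 of 16 genes tested were higher in lung by the 2-fold test and 1 in skin, with a median of 6.54. The exception was Fabp5, a fatty acid binding protein that keratinocytes also make, with medians of 81.9 CPM in lung and 389 in skin (-2.23 ± 0.12). Lamp3, a protein of lamellar bodies, ranged from 560.5 to 864 CPM in lung (median 690.1) and from 0 to 5.41 CPM in skin (median 0.349).

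Type 1 and airway genes followed. Ager, the receptor that marks type 1 cells, ranged from 977 to 1996 CPM in lung (median 1404) and from 0.894 to 10.0 CPM in skin (median 1.52), at 9.53 ± 0.17. Cldn18, a tight junction claudin, was at 10.17 ± 0.22. In the type 1 list 16 of 17 genes were higher in lung by the 2-fold test and 0 in skin, and the gene nearest to 0, Igfbp2, still stood at 1.05 ± 0.10. Scgb1a1, the secretoglobin of club cells, ranged from 6985 to 39960 CPM in lung (median 10970) and from 2.38 to 87.8 CPM in skin (median 7.36). The highest lung value was that of day 28 replicate 2, and the other lungs had at most 16480 CPM. All 14 club cell genes tested and 13 of 14 ciliated cell genes were higher in lung, the former with a median of 9.69. Sec14l3, a lipid transfer protein of airway cells, was at 10.41 ± 0.26.

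Transcription factors of the lung repeated this separation at low levels of expression. Nkx2-1, which specifies lung epithelium, ranged from 18.5 to 91.7 CPM in lung (median 30.1) and from 0 to 0.55 CPM in skin (median 0.0549), at 8.85 ± 0.17. Foxa2, a forkhead factor of endodermal epithelium, was at 0 in 28 of 39 skins and ranged from 22.7 to 42.0 CPM in lung. The size of a log2 difference against a tissue with mostly no counts depends on the fit, and for such genes the CPM are the firmer values. Of 15 listed lung factors 11 were higher in lung. Id2 at 0.22 ± 0.05 and Elf5 at 0.64 ± 0.21 stood on the lung side and Cebpa at -0.94 ± 0.05 on the skin side, without passing the 2-fold test.

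Blood vessel genes were higher in lung almost throughout the list: 26 of 27 passed the 2-fold test in that direction, with a median of 3.70. Calcrl, the receptor of adrenomedullin, ranged from 781 to 2726 CPM in lung (median 1984) and from 23.1 to 97.1 CPM in skin (median 64.8), and the groups did not overlap. Cldn5, the claudin of endothelial junctions, was at 4.84 ± 0.09 and Car4, a carbonic anhydrase of lung capillaries, at 6.25 ± 0.13. Lymphatic genes did not move as a block. Lyve1, Flt4 and Pdpn were higher in lung (Lyve1 at 3.40 ± 0.12), Thy1 and Sema3d were higher in skin (-3.24 and -2.36), and Prox1, the master regulator of lymphatic identity, stood at -0.93 ± 0.10, on the skin side and not past the 2-fold test.

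Genes of heart and pleura were part of the lung signal. Myh6, the atrial myosin heavy chain that also marks the muscle sleeves of pulmonary veins, ranged from 49.9 to 338 CPM in lung (median 206) and from 0 to 1.02 CPM in skin (median 0.122), and Myl7, an atrial light chain, was at 9.69 ± 0.19. Of 16 cardiac genes 12 were higher in lung. The 3 higher in skin were Myl2, a ventricular and slow muscle light chain, Nppb and Hcn4. Myl2 ranged from 0 to 0.105 CPM in lung (median 0.0407) and from 0 to 12.0 CPM in skin (median 0.0311), so that its difference of -3.41 rests on the skins with the highest values. Mesothelial genes were higher in lung in 9 of 10 cases, led by Muc16 (medians of 85.2 CPM in lung and 0.0568 in skin), and Bnc1, which keratinocytes also express, was higher in skin (-2.38 ± 0.16). Haemoglobin transcripts were higher in lung, Hbb-bs with medians of 2792 CPM in lung and 102 in skin (4.52 ± 0.23). Hbb-bs and Hbb-bt, like Hba-a1 and Hba-a2, are near-identical copies among which the counting may split reads. Tff2, a stomach trefoil peptide also made in airways, was at 9.19 ± 0.29 while the liver transcript Alb had medians of 1.01 CPM in lung and 2.34 in skin.

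Epidermal genes defined the skin. Trp63, which encodes p63, ranged from 0.549 to 53.5 CPM in lung (median 1.21) and from 286 to 518 CPM in skin (median 399), at -7.12 ± 0.34. Krt5 and Krt14, the keratin pair of basal cells, had medians of 1943 and 1777 CPM in skin and 1.85 and 2.55 CPM in lung. The highest lung values of these genes were those of the 3 libraries with hair transcripts. Without these libraries the difference of Trp63 was -8.24 instead of -7.12 and that of Krt5 -9.51 instead of -7.81, a ratio more than 2-fold larger in each case. Without them the medians of the basal, suprabasal, cornified and hair lists were also further below 0, at -5.56, -7.92, -9.13 and -8.50.

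Differentiated layers were separated further. Krt10, the keratin of the spinous layer, ranged from 1.57 to 110.4 CPM in lung (median 3.11) and from 427 to 3698 CPM in skin (median 2282), at -8.19 ± 0.37. All 23 cornified envelope genes tested were higher in skin by the 2-fold test, with a median of -7.58, all but 4 of them with every skin above every lung. Flg2, filaggrin 2, had medians of 2.73 CPM in lung and 4445 in skin, and Dsp, desmoplakin, ranged from 153 to 1223 CPM in lung (median 198) and from 4768 to 7755 CPM in skin (median 6372). Of the suprabasal list 15 of 18 were higher in skin and Notch3, which blood vessels also express, stood at -0.10 ± 0.05. In the basal list Itga6, an integrin chain, and Lamb3, a laminin chain, stood at -0.23 ± 0.05 and -0.16 ± 0.07.

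Hair genes varied widely between skins. Tchh, trichohyalin of the inner root sheath, ranged from 4.14 to 3305 CPM in lung (median 6.86) and from 11.5 to 24030 CPM in skin (median 54.5), and Krt71, an inner root sheath keratin, from 0 to 1544 CPM in lung (median 0.735) and from 0.265 to 10320 CPM in skin (median 17.5). The groups overlapped for both, although 27 of 28 hair genes tested were higher in skin by the 2-fold test (median -5.71). Summed hair genes had medians of 29.4, 30.4, 2574, 889 and 9079 CPM in skin on days 7, 14, 21, 28 and 42. The lung medians were 24.4, 22.1, 30.5, 22.8 and 23.1 CPM, so that most skins of days 7 and 14 held hair shaft RNA at a level close to that of lung. Sebaceous gland genes were higher in skin in 13 of 16 cases: Far2, a fatty acyl-CoA reductase, ranged from 0.127 to 45.4 CPM in lung (median 0.671) and from 204 to 1023 CPM in skin (median 705), with no overlap. Fads2, a fatty acid desaturase, was higher in lung (1.92 ± 0.16).

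Fat and skeletal muscle below the dermis added to the skin profile. Adipoq, adiponectin, ranged from 1.63 to 27.9 CPM in lung (median 6.57) and from 109.7 to 396 CPM in skin (median 212), and 15 of 19 adipocyte genes were higher in skin, with Lep at -5.99 ± 0.24. Acaca and Fasn, enzymes of fatty acid synthesis that type 2 cells also need, stood at -0.63 ± 0.07 and -0.67 ± 0.11 and did not pass the 2-fold test. Myh4, a fast skeletal myosin, ranged from 0.079 to 28.6 CPM in lung (median 0.677) and from 0.385 to 8941 CPM in skin (median 891). Of 24 muscle genes 20 were higher in skin, and their sum had medians of 23630, 20550, 3455, 5440 and 7016 CPM in skin on the 5 days. Among single skins it ranged from 58.6 to 74840 CPM. Myh7, the slow and cardiac myosin, was higher in lung (3.87 ± 0.46).

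Sequences before the transcription start were read for the genes furthest apart between the tissues. Those of Sftpb, Sftpa1, Krt10 and Lor are shown because these genes belong to the surfactant and epidermal lists, and that of Blmh, which encodes bleomycin hydrolase, because its level is described below. Lor, which encodes loricrin, was chosen after its values were seen (-7.95 on the log2 scale). Each is the 250 bases before the start, from RefSeq on GRCm38.p6, 5′ to 3′. Capitals mark matches to any of 4 motifs on either strand, which are spelled out after the sequences. The coordinates are Sftpb chr6:72304360-72304609, plus strand; Sftpa1 chr14:41131538-41131787, plus strand; Krt10 chr11:99389365-99389614, minus strand; Lor chr3:92083143-92083392, minus strand; and Blmh chr11:76945406-76945655, plus strand.
Sftpb: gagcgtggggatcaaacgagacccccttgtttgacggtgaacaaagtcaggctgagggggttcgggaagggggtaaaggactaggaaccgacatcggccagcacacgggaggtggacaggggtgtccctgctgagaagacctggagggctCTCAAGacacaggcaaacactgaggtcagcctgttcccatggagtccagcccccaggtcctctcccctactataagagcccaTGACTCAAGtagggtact
Sftpa1: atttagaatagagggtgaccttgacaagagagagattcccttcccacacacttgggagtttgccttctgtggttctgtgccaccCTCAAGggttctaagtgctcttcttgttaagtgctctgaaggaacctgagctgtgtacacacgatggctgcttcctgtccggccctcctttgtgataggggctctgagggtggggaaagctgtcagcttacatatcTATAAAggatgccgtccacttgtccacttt
Krt10: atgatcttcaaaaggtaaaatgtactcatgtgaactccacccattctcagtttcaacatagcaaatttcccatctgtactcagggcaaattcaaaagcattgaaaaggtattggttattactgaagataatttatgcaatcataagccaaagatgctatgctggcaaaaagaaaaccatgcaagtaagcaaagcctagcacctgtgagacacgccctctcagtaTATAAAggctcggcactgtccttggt
Lor: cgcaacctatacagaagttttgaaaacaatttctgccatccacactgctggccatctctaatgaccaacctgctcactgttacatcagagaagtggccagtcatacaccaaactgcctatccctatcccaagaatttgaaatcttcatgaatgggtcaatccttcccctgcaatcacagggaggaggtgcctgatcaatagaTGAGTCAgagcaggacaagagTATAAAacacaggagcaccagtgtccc
Blmh: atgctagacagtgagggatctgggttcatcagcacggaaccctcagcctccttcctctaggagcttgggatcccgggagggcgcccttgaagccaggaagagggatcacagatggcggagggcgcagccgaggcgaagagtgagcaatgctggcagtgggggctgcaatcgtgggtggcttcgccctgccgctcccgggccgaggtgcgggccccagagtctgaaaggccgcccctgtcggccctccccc

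TATAAA is the core of the TATA box. It starts 30 bases before the start of Sftpa1, 26 before that of Krt10 and 27 before that of Lor. CTCAAG, a core associated with NKX2-1, occurs 100 and 15 bases before the start of Sftpb and 166 before that of Sftpa1. The second of the Sftpb matches shares letters with a match to TGANTCA. With N as any base, this pattern includes the AP-1 motif and is wider than it. Lor also holds TGANTCA, 48 bases before its start. The Blmh window holds no capitals, and its ratio of observed to expected CpG over the 300-base window was 0.621, against 0.316 for Sftpb, 0.154 for Krt10 and 0.0624 for Lor.

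Promoters in windows of 250 bases before to 50 after the start were found for 12455 of 16200 genes tested, the first listed start where several were given. Both strands were searched. TATAAA was in 8.93% of all these, in 18.1% of the 493 promoters of genes at least 16-fold higher in lung and in 26.5% of the 631 of genes at least 16-fold higher in skin. TGANTCA was in 5.88% of all, 7.71% of lung and 14.7% of skin promoters. CTCAAG was in 14.7%, 18.7% and 17.3%, and AACCNGTT, the grainyhead motif, in 1.93%, 3.65% and 2.69%. A CpG ratio above 0.6 was found in 62.9% of all promoters, 25.4% of lung and 17% of skin ones. These shares are descriptions, and a match is not a bound site.

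Immune genes split between the tissues by cell type. All 12 B cell genes tested were higher in lung, with a median of 5.78: Ms4a1, which encodes CD20, ranged from 16.9 to 85.2 CPM in lung (median 41.0) and from 0 to 0.451 CPM in skin (median 0.114). Of the T and NK list 13 of 20 were higher in lung and none in skin. Gzma, a granzyme of cytotoxic cells, was at 5.48 ± 0.23 and Cd8b1 at 4.53 ± 0.16, whereas the T cell receptor component Cd3e ranged from 0.561 to 4.25 CPM in lung (median 1.90) and from 0.4 to 3.89 CPM in skin (median 1.93) and did not pass the plain test (-0.19 ± 0.13). Neutrophil and monocyte genes were higher in lung in 9 of 14 cases, S100a9 with medians of 23.7 CPM in lung and 1.02 in skin. Il1r2, the decoy receptor of interleukin 1, was higher in skin (-5.07 ± 0.19).

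Macrophage and mast cell genes leaned to skin. Cd163, a scavenger receptor of resident macrophages, ranged from 4.56 to 23.4 CPM in lung (median 12.2) and from 33.7 to 219 CPM in skin (median 139), with no overlap. In the macrophage list 10 of 19 were higher in skin and 2 in lung (median -1.33), the 2 being Lyve1 and Cx3cr1. Genes of alveolar macrophages were split 7 to 7 of 17: Chil3 (8.38 ± 0.23) and Ear1 (8.28 ± 0.18) were higher in lung, while Trim29, Krt79, Fabp4 and Cidec, which keratinocytes, sebaceous gland or fat also express, were higher in skin. Mcpt4, a mast cell chymase, ranged from 0.0982 to 12.4 CPM in lung (median 0.436) and from 39.7 to 242 CPM in skin (median 129.9), and 9 of 12 mast cell genes were higher in skin. Kit, Hdc and Gata2, which other lung cells also use, were the 3 higher in lung. Cd207, the langerin of Langerhans cells, was at -3.82 ± 0.15, and Cd74, the invariant chain of antigen presentation, did not pass the plain test (medians of 753 CPM in lung and 878 in skin).

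Fibroblast identity genes separated the stroma of the tissues. Tcf21, a factor of lung lipofibroblasts and alveolar fibroblasts, ranged from 31.9 to 53.3 CPM in lung (median 44.2) and from 0 to 0.228 CPM in skin (median 0). Tbx4, a T-box factor of lung mesenchyme, was at 7.32 ± 0.10 and Inmt, a methyltransferase of lung fibroblasts, at 8.89 ± 0.24. Of 26 genes listed for lung fibroblasts 16 were higher in lung and 5 in skin, and the 5 included Pi16 and Dpt, which mark adventitial fibroblasts in many organs. Of 30 dermal fibroblast genes tested 21 were higher in skin and 2 in lung. Tbx15, a T-box factor of back skin dermis, ranged from 0 to 6.51 CPM in lung (median 0.289) and from 29.5 to 94.6 CPM in skin (median 56.8). The 3 lungs with hair transcripts had 5.44 to 6.51 CPM of Tbx15, and the other lungs at most 1.21 CPM. En1, marker of a fibroblast lineage of dorsal dermis, had at most 0.23 CPM in lung and from 0.514 to 4.98 CPM in skin. Twist2, the dermal bHLH factor, was at -3.02 ± 0.08 and Twist1 at -6.41 ± 0.24. The 2 dermal genes higher in lung were Sox2 (3.62 ± 0.10), which airway epithelium expresses, and Pdgfra (1.45 ± 0.05), a receptor of fibroblasts in each tissue.

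HOX genes, which record position along the body axis, split by cluster. Of 39 listed, 23 passed the filter on low counts, and 16 did not. All 5 tested genes of the HoxC cluster and all 5 of the HoxD cluster were higher in skin, from -4.15 (Hoxd9) to -6.57 (Hoxc6). Hoxd8 ranged from 0.13 to 2.71 CPM in lung (median 0.488) and from 9.30 to 26.6 CPM in skin (median 19.4). HoxA and HoxB genes were expressed in each tissue. Hoxa5, needed for lung morphogenesis, ranged from 8.77 to 28.4 CPM in lung (median 20.2) and from 1.05 to 6.53 CPM in skin (median 2.28), and Hoxa3, Hoxa6 and Hoxb5 were the other 3 higher in lung by the 2-fold test (1.57, 1.91 and 1.28). Hoxa2 ranged from 2.58 to 4.96 CPM in lung (median 3.55) and from 1.82 to 6.19 CPM in skin (median 3.55) and did not pass the plain test (adjusted p = 0.8 in edgeR). Hoxc13, a hair follicle factor, had its highest lung value of 8.13 CPM among the lungs with hair transcripts, and its difference was -8.24 without them.

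**Figure D2:**
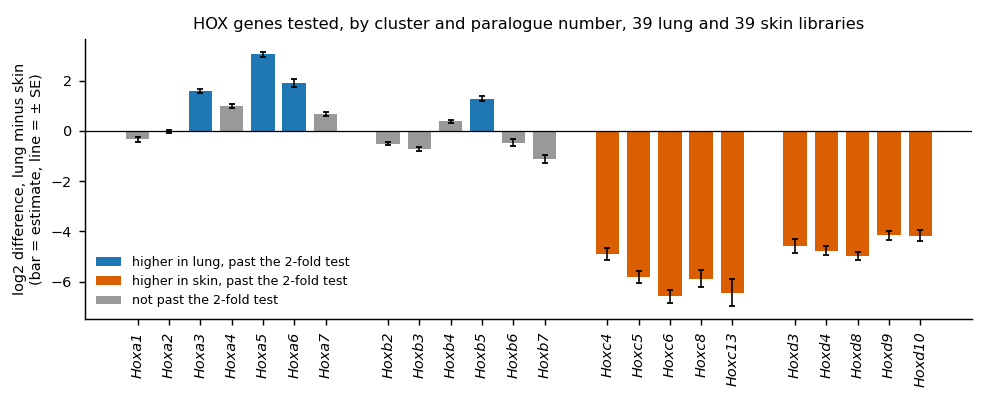
Log2 difference between lung and skin (bars, with SE) of the 23 HOX genes tested, ordered by cluster and paralogue number. All 10 HoxC and HoxD genes lie at -4.15 or below, while HoxA and HoxB genes lie between -1.12 and 3.04.

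Fibrillar collagens were higher in skin. Col1a1, the main chain of collagen I, ranged from 40.9 to 381 CPM in lung (median 69.1) and from 439 to 2365 CPM in skin (median 1092), so that every skin lay above every lung, a 13.0-fold difference (-3.70 ± 0.17, adjusted p = 5.55e-27 in the 2-fold test). The 2 highest lungs were day 28 replicates 2 and 6, at 381 and 379 CPM. Col1a2 was at -2.80 ± 0.13 and Col3a1, collagen III, ranged from 440.1 to 3863 CPM in lung (median 929.6) and from 2640 to 12980 CPM in skin (median 5702) (-2.65 ± 0.13). Of 10 fibrillar chains tested 8 passed the 2-fold test towards skin, 7 without the 3 lungs with hair transcripts, and none towards lung. The largest difference was that of Col11a1 (-4.92 ± 0.38), and Col11a2 and Col27a1 stood on the lung side at 0.37 ± 0.10 and 0.39 ± 0.08. Per length, as transcripts per 1000000 (TPM), Col3a1 exceeded Col1a1 in each tissue, with medians of 370.3 against 39.7 in lung and 2277 against 648 in skin.

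The lung of day 28 replicate 6 stood apart in matrix genes. Col3a1 was at 3863 CPM there and at most 1493 in the other lungs, Fn1 at 2335 against at most 598, and Tnc at 284 against at most 77.6. Saa3, an acute phase protein chosen after its values were seen, like Tnc, was at 458 CPM, against a median of 1.07 in lungs without hair transcripts and 167 in the next highest lung. Without this library Col1a1 was at -3.78, Col3a1 at -2.77 and Fn1 at -1.06, and all 3 stayed higher in skin.

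Collagens of other classes leaned to skin. Col17a1, the collagen of hemidesmosomes, ranged from 5.63 to 91.7 CPM in lung (median 8.93) and from 477 to 1499 CPM in skin (median 1116), and Col7a1, of anchoring fibrils, was at -3.23 ± 0.10. Col13a1, a transmembrane collagen, was the only one of 22 other collagens past the 2-fold test towards lung (4.18 ± 0.08), and 10 were past it towards skin. Basement membrane genes leaned the other way. Col4a3, a chain of the alveolar and glomerular basement membrane, ranged from 294 to 519 CPM in lung (median 423) and from 3.91 to 15.1 CPM in skin (median 7.79), with no overlap (5.66 ± 0.08). Its partners Col4a4 and Col4a5 were at 4.14 ± 0.06 and 1.76 ± 0.04, and nephronectin (Npnt) at 3.88 ± 0.08. Of 25 such genes 7 were higher in lung and 2 in skin, the latter being Frem2 and Nid2. Lamc1 and Lamb1, laminin chains of most basement membranes, were at 0.04 ± 0.04 and 0.13 ± 0.06.

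Elastic fibre genes differed little as a list (median 0.27) and in opposite directions as members. Eln, elastin, ranged from 89.0 to 439.8 CPM in lung (median 180.4) and from 49.9 to 421 CPM in skin (median 108) and was higher in lung by 0.55 ± 0.11, which passed the plain test (adjusted p = 1e-05 in edgeR) and not the 2-fold test. By day the Eln difference went from 0.08 to 1.67. Fbn1, fibrillin 1, was higher in skin (-1.57 ± 0.07), as was Fbln2 (-2.88 ± 0.10), while Emilin1 and Mfap4 (1.34 ± 0.09) were higher in lung. Lox, the cross-linking oxidase (medians of 72.7 CPM in lung and 59.4 in skin), and Serpinh1, the collagen chaperone (medians of 387 CPM in lung and 391 in skin), did not pass the plain test. Plod2, which hydroxylates telopeptide lysines, was higher in lung (1.82 ± 0.13), and Loxl2 and Loxl4 were higher in skin (-1.56 and -2.01).

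Proteoglycans and matricellular genes were divided. Dcn, decorin, ranged from 111 to 555 CPM in lung (median 162) and from 869.7 to 3108 CPM in skin (median 2126), and Lum, lumican, was at -5.12 ± 0.19, each with all skins above all lungs. Ogn, osteoglycin, was higher in lung (1.89 ± 0.08), as were Prelp and Chad (8.65 ± 0.19). Thbs2, an antiangiogenic thrombospondin, ranged from 3.57 to 31.7 CPM in lung (median 5.79) and from 105 to 594 CPM in skin (median 366), whereas Thbs1 did not pass the plain test (0.17 ± 0.11). Spp1, osteopontin, was higher in lung (medians of 73.6 CPM in lung and 4.44 in skin) and Postn, periostin, higher in skin (-1.10 ± 0.06). Fn1, fibronectin, ranged from 276 to 2335 CPM in lung (median 383) and from 280.4 to 1748 CPM in skin (median 844), a difference of -0.93 ± 0.12 that passed the plain test only. Among metalloproteinases Mmp2 and Mmp14 were higher in skin (-1.52 and -1.91), Mmp8 and Mmp15 in lung (4.69 and 2.92), and Mmp3 and Mmp9 did not pass the plain test (-0.08 and 0.20). Has2, a hyaluronan synthase, was at -3.68 ± 0.13.

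**Figure D3:**
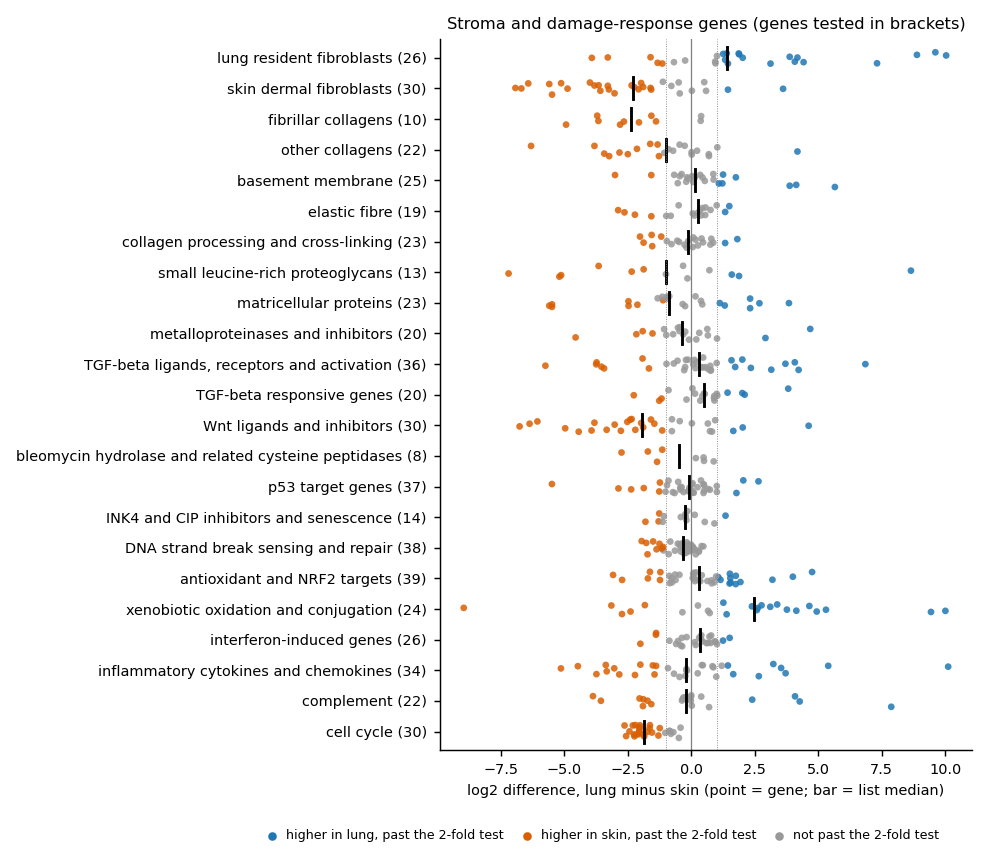
Log2 difference between lung and skin (horizontal axis) for each tested gene of 23 lists of stroma and damage-response genes, coloured by the 2-fold test. Medians of the damage lists lie near 0, except that of cell cycle genes on the skin side and that of xenobiotic enzymes on the lung side.

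TGF-beta signalling genes, the pathway the study's inhibitor targets, differed in both directions, with a list median of 0.31. All 3 ligands were higher in lung by the plain test and not by the 2-fold test: Tgfb1 at 0.47 ± 0.08, Tgfb2 at 0.77 ± 0.08 and Tgfb3 at 0.75 ± 0.07. Tgfb1 was at 56.6 CPM in day 28 replicate 2 of lung, the shallowest library, and at most 20.3 in the other lungs. Tgfbr1, which encodes ALK5, ranged from 126 to 181 CPM in lung (median 149) and from 70.9 to 109 CPM in skin (median 86.0), so that each lung lay above each skin (0.78 ± 0.02). Tgfbr2 was at 0.22 ± 0.07 and overlapped. Of the 36 ligand, receptor and activation genes 9 were higher in lung and 7 in skin by the 2-fold test. By the plain test 20 were higher in lung and 13 in skin. Acvrl1 and Bmp6, of the endothelial BMP branch, and Itga8, an integrin chain, were higher in lung (4.23, 3.71 and 4.08). The secreted antagonists Grem1, Nog and Fst were higher in skin (-5.74, -3.72 and -3.53), and Grem1 ranged from 0.32 to 4.42 CPM in lung (median 1.36) and from 14.3 to 123 CPM in skin (median 80.2).

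Responsive genes of the pathway did not move as a list: 4 of 20 were higher in lung and 3 in skin, with a median of 0.52. The inhibitory Smads Smad6 and Smad7 were higher in lung (3.82 ± 0.15 and 2.11 ± 0.10). Tgfbi was higher in skin (-2.26 ± 0.10), and Pmepa1, a feedback inhibitor, had medians of 25.5 CPM in lung and 24.8 in skin. Wnt ligands and inhibitors were mostly higher in skin, 19 of 30 against 3 in lung (median -1.93). Wnt3 and Wnt10a, epidermal and follicle ligands, were at -6.75 ± 0.31 and -6.36 ± 0.29, and Wnt2 and Wnt7a, ligands of lung mesenchyme and epithelium, at 2.03 ± 0.10 and 4.63 ± 0.17. Igf1 was higher in skin (medians of 39.3 CPM in lung and 158 in skin), while Igf1r was at 0.29 ± 0.03.

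Bleomycin hydrolase was higher in skin on each of the 5 days. Blmh ranged from 32.9 to 81.6 CPM in lung (median 49.8) and from 105 to 267 CPM in skin (median 156), so that the lowest skin lay above the highest lung, and the skin level was 3.26-fold that of lung (-1.71 ± 0.07, adjusted p = 2.55e-17 in the 2-fold test). By day the difference lay between -1.94 and -1.38. The 3 highest lungs, at 74.5 to 81.6 CPM, were those with hair transcripts, and without them the difference was -1.76. Over the 17 alternative analyses it ran from -1.88 to -1.57. Other cysteine peptidases of the list were split: Ctsk, Ctsb and Ctsl were higher in skin (-2.74, -1.34 and -1.14), Ctsh, Ctsc and Ctsz stood on the lung side (0.89, 0.51 and 0.49), and Ctss did not pass the plain test. In keratinocytes the enzyme is known to take part in filaggrin breakdown. The part of the epidermis in the skin level of Blmh was not tested.

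**Figure D4:**
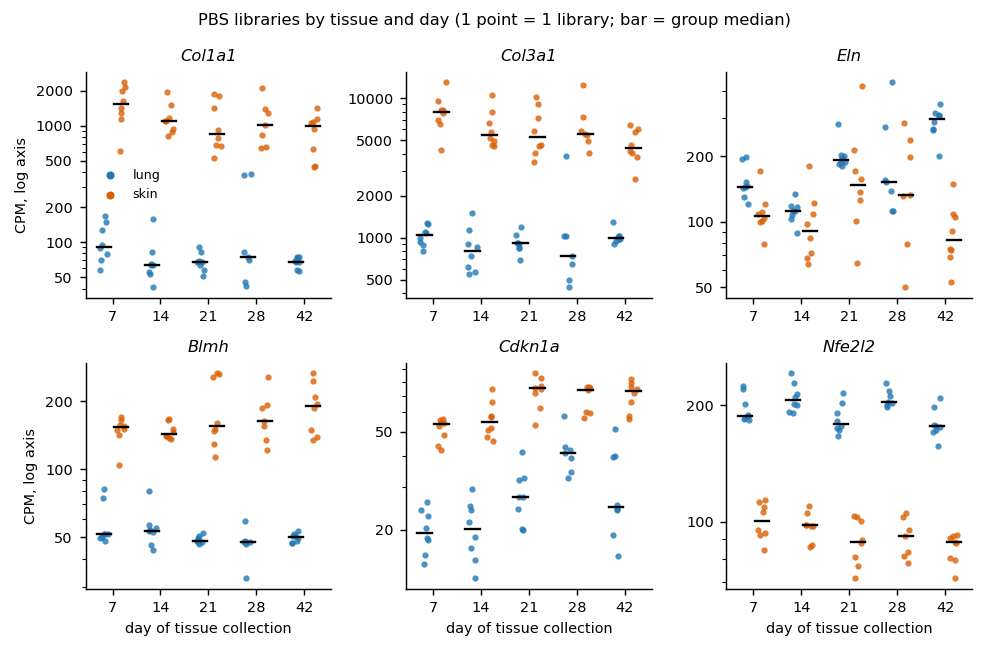
CPM on a log axis of Col1a1, Col3a1, Eln, Blmh, Cdkn1a and Nfe2l2 in each PBS library, by day of collection and tissue, with group medians as bars. Col1a1 and Blmh are higher in all skins than in any lung and Nfe2l2 in all lungs than in any skin, while Eln overlaps.

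Genes of the p53 response were close to even. Trp53 itself was higher in skin by the plain test (-0.65 ± 0.04), and Mdm2, its target and inhibitor, stood at 0.10 ± 0.02. Cdkn1a, the p21 inhibitor and main arrest effector, ranged from 12.7 to 58.2 CPM in lung (median 24.4) and from 42.1 to 86.7 CPM in skin (median 60.0), was 2.39-fold higher in skin (-1.26 ± 0.07) and overlapped. Its lung medians were 19.5, 20.1, 27.2, 41.0 and 24.8 CPM over the 5 days and its skin medians 53.8, 54.8, 75.1, 73.7 and 73.2. Ccng1 ranged from 131 to 226 CPM in lung (median 152) and from 84.2 to 436 CPM in skin (median 169) and did not pass the plain test (-0.07 ± 0.06). Of 37 p53 targets 3 were higher in lung and 6 in skin by the 2-fold test (15.8% and 16.9% among all genes), with a median of -0.07. Perp, a desmosome protein of stratified epithelia as well as a p53 target, led the 6 (medians of 25.1 CPM in lung and 1772 in skin), and Eda2r, a death receptor induced by p53, was also among them (-1.23 ± 0.12). Fas, another death receptor, was higher in lung (2.05 ± 0.08). Gdf15, a stress cytokine, stood at 0.49 ± 0.23 and passed the plain test in 8 of 17 alternative analyses.

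Among cyclin-dependent kinase inhibitors Cdkn2c was higher in skin (-1.28 ± 0.05) and Cdkn1c in lung (1.35 ± 0.10), Cdkn2b stood on the lung side (0.92 ± 0.06), and Cdkn2a did not pass the filter, with at most 11 counts in any lung and 10 in any skin. Repair genes were near 0 (median -0.30). None of 38 was higher in lung by the 2-fold test and 8 were higher in skin. Brca1 (-1.72 ± 0.16) belongs to homologous recombination, which operates in dividing cells, and Ung (-1.77 ± 0.12) removes uracil from DNA. Parp1, which senses strand breaks, had medians of 66.1 CPM in lung and 65.9 in skin and did not pass the plain test, nor did Xrcc5, of end joining (0.05 ± 0.04).

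Cell cycle genes were higher in skin in all 30 cases by the plain test and in 23 by the 2-fold test (median -1.86). Mki67 ranged from 24.1 to 226 CPM in lung (median 56.7) and from 123 to 932 CPM in skin (median 266), at -2.43 ± 0.16. Summed cell cycle genes had medians of 381, 382, 392, 343 and 397 CPM in lung and 871, 763, 2293, 1469 and 1869 in skin on the 5 days, and the skin medians were highest on the 3 days on which hair transcripts were. The part of the hair follicle in this was not tested.

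Antioxidant genes differed gene by gene. Nfe2l2, which encodes NRF2, ranged from 157 to 242 CPM in lung (median 198) and from 71.4 to 114 CPM in skin (median 92.2), with every lung above every skin (1.07 ± 0.03), and its inhibitor Keap1 was at 0.11 ± 0.02. Prdx6, a peroxiredoxin of surfactant turnover, ranged from 575 to 1407 CPM in lung (median 859.8) and from 61.5 to 139 CPM in skin (median 102), and the glutathione transferases Gsta3 and Gsta4 were higher in lung (4.76 and 4.00). Hmox1, haem oxygenase 1, was higher in skin (-1.70 ± 0.10), as were the metallothioneins Mt1 and Mt2 (-1.62 and -3.07). Gclm and Prdx1, also NRF2 targets, did not pass the plain test (0.14 and 0.06). Of the 39 genes 12 were higher in lung and 6 in skin. Enzymes of xenobiotic metabolism were more lopsided, with 15 of 24 higher in lung and 5 in skin. Sult1d1, a sulfotransferase, ranged from 12.4 to 36.8 CPM in lung (median 18.9) and from 0 to 0.187 CPM in skin (median 0). Cyp2g1 was the main exception (medians of 0.173 CPM in lung and 359 in skin).

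Mediators of inflammation were divided between the tissues. Of 34 cytokines and chemokines 8 were higher in lung and 12 in skin by the 2-fold test (median -0.18), of 22 complement genes 4 and 7 (median -0.19), and of 26 interferon-induced genes 2 and 3 (median 0.35), beside 15.8% and 16.9% among all genes. Summed cytokine genes ranged from 1342 to 2486 CPM in lung (median 1989) and from 508.5 to 973.5 CPM in skin (median 653), with no overlap. Most of the lung sum was 1 gene, so the sum does not describe the list as a whole. This gene, Cxcl15, the lung chemokine lungkine, ranged from 784 to 2006 CPM in lung (median 1382) and from 0.0954 to 11.8 CPM in skin (median 0.786). Lcn2, lipocalin 2, was at 5.40 ± 0.13. Ccl8 and Ccl11, chemokines for monocytes and eosinophils, were higher in skin (-5.13 ± 0.28 and -4.46 ± 0.14). Il6 ranged from 0 to 2.01 CPM in lung (median 0.563) and from 0 to 5.57 CPM in skin (median 0.522) and, like Cxcl1, did not pass the plain test. Among complement genes C7 was higher in lung (7.88 ± 0.17) and Cfd, adipsin, in skin (medians of 32.9 CPM in lung and 590.4 in skin), and C2 did not pass the plain test (0.01).

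The tissue difference depended on the day for 6903 of 16200 genes (42.6%) in edgeR's F test. The count was 2031 without the 15 libraries of unusual composition (13 lungs and 2 skins). Lungs were screened on more marker sums than skins, and the hair and muscle sums of skins were not screened. The lungs left out came unevenly from days 7 to 28, so this omission also changes the balance of days. Within plates, where there are fewer libraries, the count was 141 on plate 1 and 1297 on plate 2. The 10 smallest p included those of the immediate-early genes Egr1, Fos, Ier2, Junb and Jun, whose transcripts are induced within minutes of a stimulus. Fos had medians of 26.6, 22.9, 509.7, 744 and 729.8 CPM in skin on days 7, 14, 21, 28 and 42 and of 59.2, 69.1, 37.0, 44.1 and 41.0 in lung. Over the days its log2 difference ran from 1.32 to -4.11. Egr1 medians were 17.9, 15.3, 126, 99.7 and 138 in skin and 21.2, 23.3, 10.3, 8.19 and 7.02 in lung. Junb, Ier2 and Jun, and Areg and Hbegf, which encode ligands of the EGF receptor, also had their higher skin medians on days 21, 28 and 42. All 10 kept an adjusted p under 0.05 without the 15 libraries and on plate 2 alone, with the weakest on plate 2 that of Grasp (0.00229). Their values across days on plate 1 alone are not given here.

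Cxcl14, a chemokine of fibroblasts and epithelium, had the smallest p of all, with skin medians of 42.3, 40.0, 113, 100.2 and 127 CPM and lung medians of 53.8, 60.8, 48.1, 42.1 and 42.3. The shift between days 14 and 21 in skin came with the start of oral dosing, with the end of the injections and with the rise of hair transcripts given above. It also came with a fall of the clock gene Dbp in both tissues, given below. These and the hour of collection cannot be told apart. Skeletal muscle transcripts in skin were lower on the 3 later days. The clock output gene Dbp moved with the day in both tissues alike, with lung medians of 78.8, 91.5, 26.1, 13.4 and 9.22 CPM and skin medians of 71.7, 98.7, 21.9, 17.6 and 6.80, and its mean difference did not pass the plain test (-0.10 ± 0.12).

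**Figure D5:**
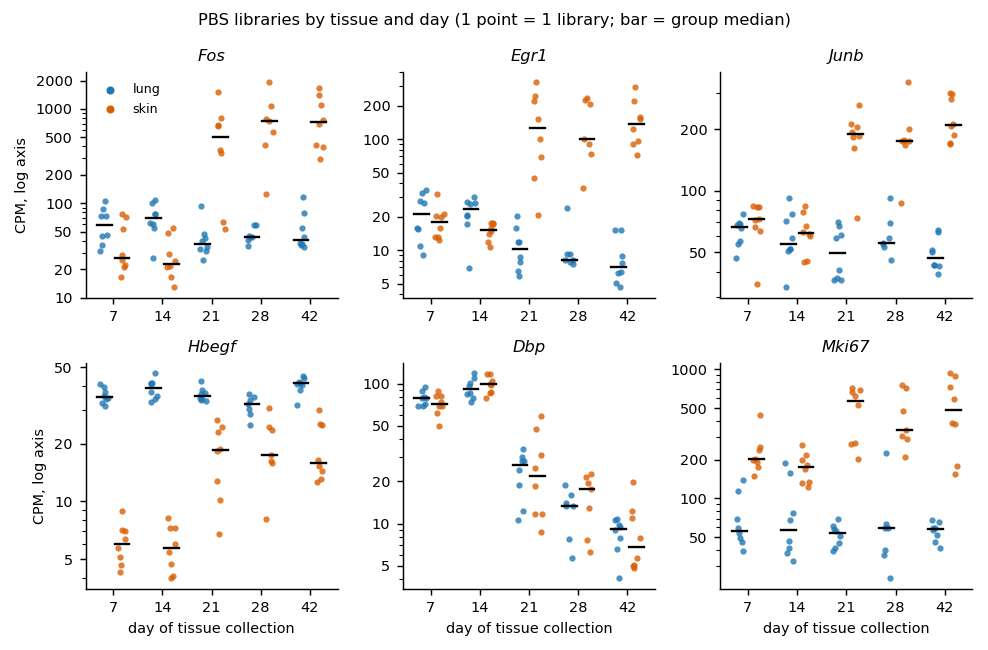
CPM on a log axis of Fos, Egr1, Junb, Hbegf, Dbp and Mki67 in each PBS library, by day of collection and tissue, with group medians as bars. The skin medians of the first 4 and of Mki67 are higher on days 21, 28 and 42 than on days 7 and 14, while Dbp is lower on the later days in both tissues.

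Reference genes differed little by the 2-fold test. No housekeeping gene of 18 passed it in either direction and Tbp, the TATA-binding protein, was the closest to 0 (0.03 ± 0.02). By the plain test, which 88% of all genes passed, 6 were higher in lung and 10 in skin. Their log2 differences ran from -1.05 to 0.47. The list's median was -0.29. None of 13 mitochondrial transcripts passed the 2-fold test, and by the plain test 2 were higher in lung and 5 in skin. Among 2-fold calls, 4728 to 5284 of the 5295 were also made in each of the 17 alternative analyses, and every shared call kept its sign.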

How the data were processed

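Total RNA of 39 lung and 39 skin samples was sequenced after ribosomal RNA depletion with a stranded kit, per the labels' protocols. The authors deposited expected counts per gene from RSEM on GRCm38, per the submitters' processing notes, and a table of log2 CPM of expressed protein-coding genes corrected for plate, made with edgeR. RSEM's version is not given in the sources used here. Expected counts, rounded to whole numbers, entered the main analysis, and 83.8% of the deposited values were already whole, exactly. The table held 22095 gene identifiers, of which 21929 were named from GENCODE M21. Libraries of the bleomycin groups did not enter.

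Counts were analysed in 1 fit of 10 groups (tissue by day) with plate as covariate, in edgeR 4.0.16 under R 4.3.3. The steps were filterByExpr by group, TMM scaling, the quasi-likelihood test of the mean over days, of each day and of the difference across days, and glmTreat with a minimum fold of 2. P-values were adjusted by Benjamini-Hochberg over all 16200 genes, and a call is an adjusted p below 0.05. SE was the log2 difference divided by the square root of the F statistic. The chain was also run on simulated data in which few genes differed, and by no more than 2-fold. These tissues differ in most genes, so that run does not test this setting. CPM of single genes used TMM-scaled library sizes, summed CPM of lists the unscaled totals, and TPM the exon union length per gene. No genes were tested that failed the filter, and 39 listed genes did so. Alternatives were other scalings, no filter, DESeq2 1.42.0, limma 3.58.1 (voom, and trend on the deposited log2 table), other plate terms, a replicate block, each plate alone, and the omission of libraries. Libraries of unusual composition lay more than 5 median absolute deviations from their tissue's median in total count, share of the 10 top genes, genes detected, ribosomal protein share or a marker sum. For lungs the marker sums were those of hair, suprabasal epidermis, skeletal muscle and neighbouring organs. For skins only the sum of alveolar type 2 genes was used. The alternatives without the 3 lungs with hair transcripts and without day 28 replicates 2 and 6 were chosen after seeing the data.

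The gene lists and the members described were chosen with earlier results of these data known. Genes were named by rule: the 10 most abundant genes per direction at least 16-fold apart, the 10 largest differences per direction among genes of mean log2 CPM 1 or more, up to 4 members per list and direction with the largest differences and up to 4 nearest to 0, all members of a few lists, and the 10 smallest p across days. Promoter sequences are from RefSeq. Results for a few listed genes are not reported here.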

Additional observations from a re-analysis of the deposited data

Results flagged for a closer look

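Dixon's test for a single outlying library was run on 15 measures in each of the 10 groups. It gave 21 flags in 150 tests, where chance gives about 1 in 20, or 7.5. Several measures of 1 library can be flagged together, so the flags are not independent. Day 28 replicate 2 of lung stood apart in total count (4.788 M, where M is 1000000 counts, others from 15.12 M), in the share of its 10 top genes (12.24%), in the ribosomal protein share (14.05%) and in Blmh (32.94 CPM, others from 46.84). Day 14 replicate 6 of lung stood apart in hair genes (5648 CPM), epidermal genes (2878 CPM), alveolar genes (16200 CPM, the lowest), ribosomal protein share (2.531%) and Blmh (80.41 CPM). Day 14 replicate 2 of lung had 14.52% of counts in its 10 top genes, 7.412% of all counts from Gm10800 alone. The ribosomal protein share of day 21 replicate 1 of lung was 2.302%.

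Col3a1 reached 3863 CPM in day 28 replicate 6 of lung and 1298 CPM in day 42 replicate 2, and Eln 281.6 CPM in day 21 replicate 4. Among skins, total counts were 32.73 M in day 14 replicate 5 and 43.07 M in day 21 replicate 2, and the top 10 share was 11.49% in day 7 replicate 8, which also had the lowest Blmh of its group (104.7 CPM, still above every lung). Hair genes were at 6345 CPM in day 7 replicate 5 and 1210 CPM in day 14 replicate 6, the numbers of 2 of the 3 lungs with hair transcripts, and skeletal muscle genes at 62.26 CPM in day 21 replicate 1.

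The difference between the tissues varied with the day by edgeR's F test for 6903 genes. The 10 smallest adjusted p were those of Cxcl14 (4.51e-15), Egr1 (4.147e-13), Fos and Ier2 (3.767e-12 each), Ahcyl2 (3.071e-11), Areg (6.358e-11), Junb (7.661e-11), Jun (3.605e-10), Grasp (4.591e-10) and Hbegf (9.937e-10). Unlike the others, Ahcyl2 had its higher lung medians on days 21, 28 and 42, with 176, 179 and 186 CPM against 139 and 131 on days 7 and 14.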

How the results depend on the processing

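Over the 17 alternatives the count past the 2-fold test ran from 4797 to 6156 genes and stayed within 1.5 times of 5295, as did the count of the plain test over days. The count for the tissue difference across days did not: 6903 became 2031 without the libraries of unusual composition, 141 on plate 1 alone and 1297 on plate 2 alone, each with fewer libraries. The count for lung minus skin at day 14 was 6914 on plate 1, where lung has 1 library whose spread is taken from the other groups, against 11627. With day and replicate number as a block, the count across days was 4150. The labels do not say that the numbers mark shared mice: of 38 pairs of lung and skin with the same number, 7 had deviations correlated above 0.1 (range -0.259 to 0.572, median 0.0139), 9 of 38 matched best with their own number, and in 24 of 24 groups the numbers follow the order of wells. The 2 highest correlations, 0.572 (day 7 replicate 5) and 0.357 (day 14 replicate 6), are of pairs in which the lung and the skin each had the most hair transcripts of their group. Whether these share a mouse was not tested.

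Among gene values, 1221 kept direction and call, 24 lost the call, 6 gained it and 6 changed sign, all 6 without a call: Il6 (0.501) and Cxcl1 (0.07) on plate 2, Hoxa2 with upper-quartile scaling (0.012), in the deposited log2 table (0.022) and on plate 1 (0.173), and Ccng1 on plate 1 (0.023). Also the median of IGF axis genes changed sign on plate 2 (-0.056), as did on plate 1 the median of p53 target genes (0.023) and the median of mitochondrial genome transcripts (0.128), and in the deposited log2 table the median of neighbouring organs in lung or skin dissection (-1.181, from 1.10). The cause was not tested. Genes near 0 counts in 1 tissue have log2 differences that depth limits.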
